A study of Mus musculus with 8 samples.

Results

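Small nucleolar RNAs (snoRNAs) and small Cajal body RNAs were taken as the listed genes whose symbol starts with Snord, Snora or Scarna and a digit, without use of their values. The rule found 119 of 24346 listed genes, of which 74 are Snord (box C/D), 36 are Snora (box H/ACA) and 9 are Scarna (Cajal body) genes. Total RNA after depletion of ribosomal RNA had been sequenced from 8 cultures of adipose-derived stem cells (ADSCs), 4 grown in 2D and 4 grown in 3D. All cultures were primary cultures of WT BALB/c mice, and the methods of the study describe male animals of 12 weeks and cells from gonadal fat. Mice 2, 3, 4 and 5 gave the 2D cultures and mice 1, 4, 5 and 7 those in 3D, so mice 4 and 5 are in both groups. The 3D cells grew in Matrigel, a basement membrane gel, and the study kept its 3D cultures through passages. It tried media with and without Wnt3a and R-Spondin1, and its methods do not state which medium the sequenced cultures had. Gel, medium and culture history thus cannot be told apart. Below, values in a group are given in the order of these mouse numbers.

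Most snoRNAs of mammals are cut from introns of other genes, called host genes, and are then trimmed back to a core protected by proteins. Box C/D snoRNAs carry a C box near the 5′ end and a D box near the 3′ end and guide 2′-O-methylation, whereas box H/ACA snoRNAs end shortly after an ACA triplet and guide pseudouridylation, in both cases mostly of ribosomal RNA. A few, such as U22 (Snord22), U8 (Snord118) and U14 (Snord14), are needed to cut the ribosomal precursor, and the RNAs of Cajal bodies guide the same modifications in spliceosomal RNAs.

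The sequences of Snord22 and of called genes without overlap between groups show where these boxes were and were not found. They are read 5′ to 3′ from GENCODE M21 on GRCm38, the assembly that mm10 names, with the C box TGATGA, the D box CTGA or the ACA triplet in capitals where a search found it, which for Snord22 was the D box alone and for Snora81 was none of them. The C box was looked for in the first 20 nt, the D box in the last 10 nt and ACA in the last 8 nt. Snord22 lies at chr19:8725866-8725991 on the plus strand, Snord15a at chr7:99482785-99482932 and Snord15b at chr7:99479563-99479707 on the minus strand, Snord17 at chr2:144265979-144266216 on the minus strand, Snora21 at chr11:97781639-97781775 on the minus strand, Snora7a at chr6:115807975-115808114 on the minus strand, Snora81 at chr16:23110756-23110933 on the plus strand and Snora15 at chr5:129794546-129794676 on the plus strand.
Snord22: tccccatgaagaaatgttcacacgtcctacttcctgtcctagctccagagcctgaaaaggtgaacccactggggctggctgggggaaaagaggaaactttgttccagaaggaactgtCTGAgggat
Snord15a: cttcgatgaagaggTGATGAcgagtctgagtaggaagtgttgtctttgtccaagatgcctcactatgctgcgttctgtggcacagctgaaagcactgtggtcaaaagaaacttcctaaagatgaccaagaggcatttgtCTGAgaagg
Snord15b: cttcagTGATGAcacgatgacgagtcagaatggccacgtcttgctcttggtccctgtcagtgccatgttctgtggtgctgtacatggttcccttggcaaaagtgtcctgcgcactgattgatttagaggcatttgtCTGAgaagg
Snord17: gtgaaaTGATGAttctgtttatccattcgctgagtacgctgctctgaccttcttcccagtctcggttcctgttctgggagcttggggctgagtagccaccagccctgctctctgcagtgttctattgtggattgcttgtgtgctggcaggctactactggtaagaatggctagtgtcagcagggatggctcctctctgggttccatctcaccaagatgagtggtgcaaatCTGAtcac
Snora21: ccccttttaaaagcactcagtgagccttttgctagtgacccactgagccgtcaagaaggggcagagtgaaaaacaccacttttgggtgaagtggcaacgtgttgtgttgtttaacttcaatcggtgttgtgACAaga
Snora7a: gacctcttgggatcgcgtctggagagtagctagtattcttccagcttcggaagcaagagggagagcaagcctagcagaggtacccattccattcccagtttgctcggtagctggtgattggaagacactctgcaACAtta
Snora81: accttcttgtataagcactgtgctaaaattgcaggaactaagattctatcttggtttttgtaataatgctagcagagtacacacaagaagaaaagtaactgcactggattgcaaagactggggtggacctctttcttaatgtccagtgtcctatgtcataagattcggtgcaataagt
Snora15: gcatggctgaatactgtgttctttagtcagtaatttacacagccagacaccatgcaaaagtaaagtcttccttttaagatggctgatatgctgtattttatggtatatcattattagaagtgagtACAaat

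Both C/D boxes were found in 35 of 72 box C/D sequences (48.6%) and in 0 of 36 box H/ACA sequences, and the ACA triplet in 34 of 36 box H/ACA sequences (94.4%) against 5 of 72 box C/D sequences (6.94%). On the reverse strand, the C box was found in 0 sequences of either class, the D box in 3 box C/D and 0 box H/ACA sequences, and ACA in 13 and 4. In this search the class given by the symbol was therefore visible at the ends of most box H/ACA sequences, but of only 35 of the 72 box C/D sequences. Of 9 Cajal body sequences, 4 held both C/D boxes and 4 the ACA triplet. Snord15a and Snord15b, the mouse copies of the 28S methylation guide U15, matched in 107 of 162 aligned columns (66%), so they are far from identical copies.

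The genes lie inside other genes, as snoRNA genes mostly do. A host gene on the same strand was found for 112 of the 119 genes, and for 104 of them that host is itself among the listed genes, which gives 77 different listed hosts. Of these 104, 57 lie in an intron of all annotated transcripts of the host, and the others overlap an exon of at least 1 transcript. Among the genes described below, Snord14a, Snord14c, Snord14d, Snord22, Snord15b, Snord33, Snord47, Snord99, Snora7a, Snora15, Snora26, Snora28, Snora44, Snora68 and Snora81 overlap an exon of the host. The other called genes lie in introns. Where a gene overlaps an exon, fragments of the host RNA and of the small RNA cannot be told apart from these values.

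The length of the annotated gene sets what its FPKM (fragments per kilobase, scaled to library depth, as Cufflinks estimated it) can mean. The median RefSeq length was 68 nt for box C/D, 120 nt for box H/ACA and 118 nt for Cajal body RNA genes. RefSeq was shorter than GENCODE for 95 genes, equal for 13 and longer for 10. The low FPKM values of short genes lay near whole multiples of a smallest step, read here as the value of 1 fragment. Of 152 values of up to 6 such steps in these genes, 134 (88.2%) lay within 0.1 of a whole number. The steps were fitted to these same values and to those of other short genes. This closeness is therefore partly set by the fit and is no test of the reading. On this reading, 1 fragment gave between 9600 and 13400 FPKM on a gene of 61 nt, between 2980 and 4150 FPKM at 77 nt, and between 18.9 and 28.4 FPKM at 130 nt. The step thus fell far more between 61 and 130 nt than a division by length alone would give, and why was not tested. A high FPKM of a gene under 95 nt can thus rest on very few fragments.

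**Figure D1:**
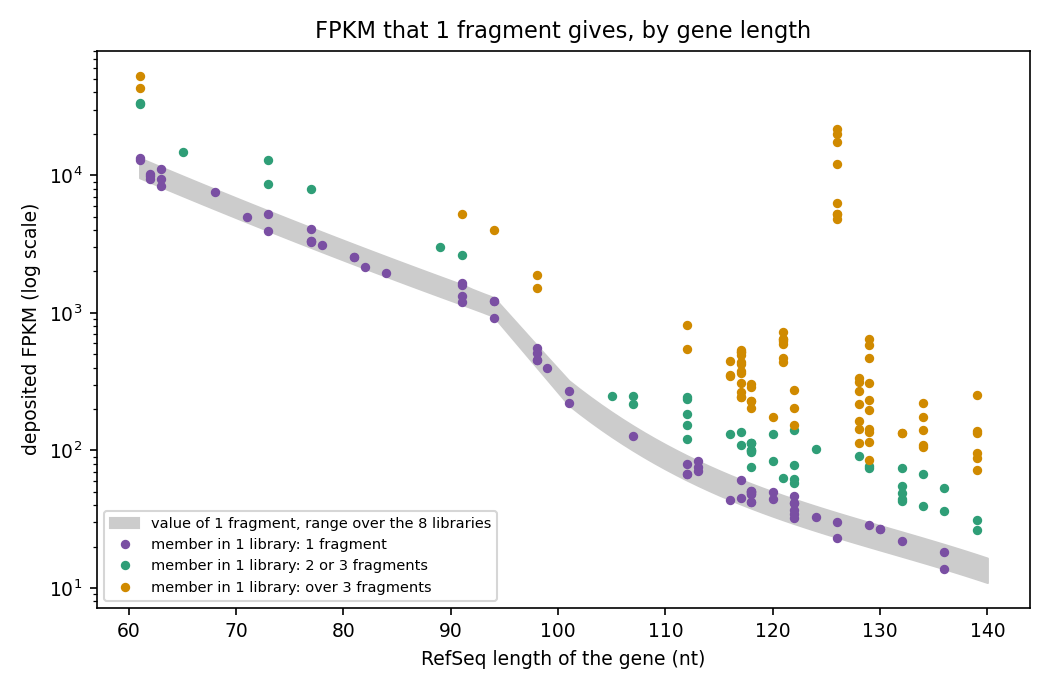
Deposited FPKM (log axis) against the RefSeq length in nt of small RNA genes of 61 to 140 nt, with 1 point for each gene and library above 0, coloured by the fragments behind it. The grey band is the value of 1 fragment over the 8 libraries, which falls from between 9600 and 13400 FPKM at 61 nt to between 18.9 and 28.4 FPKM at 130 nt, and points of 1 fragment lie on it.

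Which genes were seen at all followed the length. Of the 119 genes, 58 were above 0 in at least 1 library and 19 in all 8, and 61 were at 0 throughout. Of the 23 genes under 61 nt, 2 were above 0 in any library, against 16 of 48 genes of 61 to 94 nt, 5 of 8 genes of 95 to 110 nt, 26 of 30 longer genes up to 140 nt and 9 of 9 genes beyond that. All 9 of the last group were above 0 in every library. By class, 20 of 74 box C/D, 30 of 36 box H/ACA and 8 of 9 Cajal body RNA genes were above 0 in any library. A value of 0 is therefore no sign that a box C/D RNA is missing from the cells, and for a gene of 66 nt 3 fragments would have read as between 19800 and 27500 FPKM.

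Several well-known snoRNAs were among the genes at 0 in all 8 libraries. They included Snord14a, Snord14c and Snord14d (U14, at 87 nt, where 3 fragments give between 4511 and 6280 FPKM), Snord34 in Rpl13a, and Snord116, Snord116l1 and Snord116l2 of the imprinted Snhg14 region. Snord118 (U8) was also at 0, although at 137 nt 3 fragments would give only between 39 and 58.8 FPKM. Snord118 has no host gene by the rule used here. Of the other Rpl13a snoRNAs, which are known from work on metabolic stress, Snord33 was above 0 in the 2D library of mouse 4 alone, Snord35a in the 3D library of mouse 4 alone, and Snord32a in the 3D libraries of mice 4 and 7, with 1 or 2 fragments each. Their host Rpl13a, a ribosomal protein gene, had a log2 fold change of 0.08 between 3D and 2D (standard error 0.17, limma's adjusted p = 0.719).

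For the comparison between cultures, FPKM values were quantile normalized and tested as log2(FPKM + 1) with limma over 18862 genes. On this scale, fold changes of genes at low FPKM are understated. Those of genes at 0 in some libraries and at high FPKM in others can be overstated. Only 19 of the 58 small RNA genes above 0 were above 0 in all 8 libraries, so many of their fold changes can be of that kind. In 3D, 13 of the 58 small RNA genes above 0 were higher at an adjusted p below 0.05 (22.4%), and 0 were lower. Over all genes tested, 21.2% were called higher and 20.3% lower. The share called higher is thus near that of all genes, while the share called lower is not. No small RNA gene was lower at an unadjusted p below 0.05 either. The log2 fold change was positive in 49 of the 58 and negative in 9, with a median of 1.69 against 0.00 over all genes. The libraries did not overlap, with all 3D above all 2D, in 11 of the 58 and in the opposite order in 0, against 21.6% and 20.9% of all genes tested.

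The called genes were 4 box C/D, 7 box H/ACA and 2 Cajal body RNA genes, out of 20, 30 and 8 above 0. Their length stood out, since 8 of the 9 genes over 140 nt were called but 1 of the 16 genes of 61 to 94 nt above 0. For the genes that passed only through a few fragments in 3D, a positive fold change is partly set by being above 0 there, so the counts over the 58 genes are a description.

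**Figure D2:**
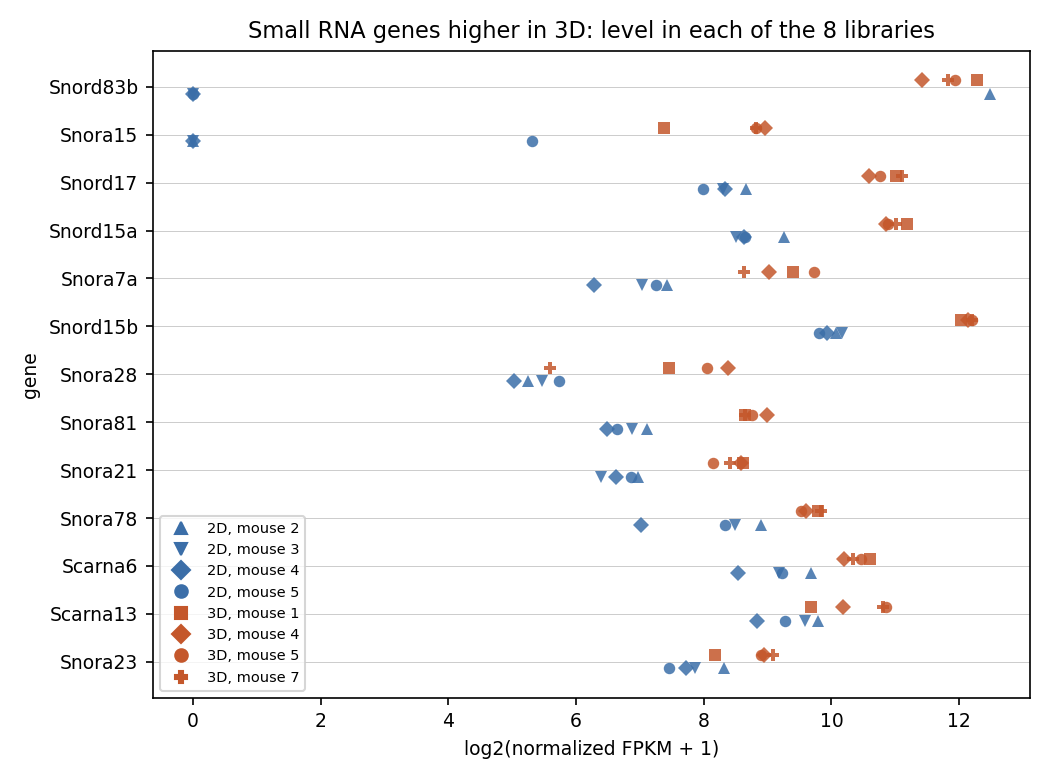
Level of the 13 small RNA genes called higher in 3D, as log2(normalized FPKM + 1), with 1 point per library, blue for 2D and orange for 3D, and a marker shape for each mouse. Groups are apart for 9 genes and overlap for Snora23, Snora28, Snord83b and Scarna13.

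Among box C/D RNAs, Snord15a, Snord15b and Snord17 rose together. Snord15b was at 1071, 1150, 976 and 896 normalized FPKM in 2D and at 4172, 4492, 4717 and 4717 in 3D. Its log2 fold change was 2.15 ± 0.22 (SE, adjusted p = 1.8e-04 by limma). All 3D libraries stood far above all 2D libraries, and at least 342 fragments in 2D and 1279 in 3D lay behind these values. Fragments above 140 nt are lower bounds, because the value of 1 fragment was read off only up to that length.

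Snord15a, from the same host, was at 609, 363, 394 and 401 normalized FPKM in 2D and at 2317, 1844, 1883 and 2070 in 3D. Its log2 fold change was 2.22 ± 0.20 (SE, adjusted p = 1.0e-04 by limma). Again the groups were apart, with the 2D library of mouse 2 above the other 2D libraries. Snord17, a methylation guide for 28S ribosomal RNA in an intron of Snx5, was at 405, 313, 320 and 254 normalized FPKM in 2D and at 2070, 1535, 1740 and 2203 in 3D. This was the smallest adjusted p of the 58 genes (log2 fold change 2.55 ± 0.19 SE, adjusted p = 4.3e-05 by limma).

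The fragments of Snord15a, Snord15b and Snord17 are lower bounds and cannot be ranked against counts. Among the box C/D genes with counted fragments, Snord22 (U22) had the most. Its deposited values were 5221, 6300, 5274 and 4812 FPKM in 2D and 19906, 21665, 12147 and 17539 FPKM in 3D, so the groups did not overlap and the mean was 3.3-fold higher in 3D. The fragments behind them were 167, 180, 205 and 206 in 2D and 567, 734, 397 and 567 in 3D, a depth-corrected ratio of 3.3 with a 95% exact interval of 3.04 to 3.59 that covers counting error only. Nevertheless the gene was not called, with a log2 fold change of 1.20 ± 0.90 (SE, adjusted p = 0.324 by limma). Quantile normalization placed it among the few highest ranks of each library, where its values were 9016, 6982, 9016 and 4908 in 2D and 9016, 15639, 29619 and 18800 in 3D and so met at 9016. On the deposited scale its log2 fold change was 1.70 and limma's adjusted p was 0.254. Without limma's trend of spread against level (0.0387) or with genes of a mean of at least 1 FPKM only (0.0235), limma's adjusted p fell below 0.05.

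Among box H/ACA RNAs, Snora81, Snora21, Snora7a and Snora15 were highest above their 2D levels with groups apart. Snora81 was at 137, 117, 88.7 and 98.5 normalized FPKM in 2D and at 399, 510, 429 and 399 in 3D (log2 fold change 1.98 ± 0.15 SE, adjusted p = 5.1e-05 by limma). Snora21 was at 125, 83, 97.9 and 115 in 2D and at 389, 382, 282 and 339 in 3D (log2 fold change 1.72 ± 0.16 SE, adjusted p = 1.2e-04 by limma). The groups were apart in both genes, but Snora21 rests on few fragments, 6, 3, 5 and 7 in 2D and 11, 12, 8 and 10 in 3D. Their summed depth-corrected ratio was 2.16 with an exact 95% interval of 1.25 to 3.84.

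Snora7a, a 28S guide in Rpl32, was at 170, 130, 77 and 152 normalized FPKM in 2D and at 671, 520, 849 and 394 in 3D (log2 fold change 2.20 ± 0.31 SE, adjusted p = 0.00105 by limma). Snora15 was at 0, 0, 0 and 38.8 in 2D and at 166, 498, 450 and 450 in 3D. Behind Snora15 were 1 fragment in 2D, in mouse 5, and 2, 8, 6 and 6 fragments in 3D, a depth-corrected ratio of 24.3 with an exact 95% interval of 3.93 to 1003. Its fitted log2 fold change of 7.17 ± 1.22 (SE, adjusted p = 0.00251 by limma) depends on the pseudocount given to the libraries at 0, and is no measure of the size.

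Snora78, Snora23 and Snora28 were also called. Snora78, within the noncoding host Snhg9, was at 474, 357, 128 and 320 normalized FPKM in 2D and at 888, 777, 737 and 917 in 3D (log2 fold change 1.51, limma's adjusted p = 0.0136). Snora23, within Ipo7, had a log2 fold change of 0.93 (limma's adjusted p = 0.0187), and its 3D library of mouse 1, at 288, lay below the 2D library of mouse 2, at 317. Snora28, an 18S guide within Eif5, had 1, 1, 1 and 2 fragments in 2D and 3, 7, 5 and 1 in 3D, so the 3D library of mouse 7 was level with 2D. Its call (limma's adjusted p = 0.0243) was lost without the 2D library of mouse 2 (0.0581) or mouse 4 (0.0566) or the 3D library of mouse 1 (0.0501), mouse 4 (0.0564) or mouse 5 (0.064).

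The most abundant box H/ACA gene was Snora74a (U19), of 198 nt on chromosome 18. It was at 3608, 2226, 1983 and 2497 deposited FPKM in 2D and at 3800, 5516, 3901 and 4351 in 3D, a 1.7-fold higher mean in 3D without overlap. After normalization the 2D library of mouse 2, at 4717, lay within the 3D range of 3005 to 4980. It was not called (log2 fold change 0.73 ± 0.41 SE, adjusted p = 0.197 by limma). Snora26 and Snora44, in the noncoding hosts Dancr and Snhg12, had log2 fold changes of 1.62 and 1.10 with limma's adjusted p of 0.0802 and 0.0697. Each passed when 1 library was left out, Snora26 without the 2D library of mouse 4 (0.00743) and Snora44 without that of mouse 3 (0.0431). Snora68 was at 0 in 1 library of each group and had a log2 fold change of 0.36 ± 3.05 (SE, adjusted p = 0.93 by limma).

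Of the Cajal body RNA genes, Scarna6 and Scarna13 were called. Scarna6, in an intron of the autophagy gene Atg16l1, was at 816, 580, 371 and 598 normalized FPKM in 2D and at 1557, 1177, 1404 and 1288 in 3D (log2 fold change 1.24 ± 0.25 SE, adjusted p = 0.00504 by limma). Scarna13, in the noncoding host Snhg10, was at 888, 767, 457 and 616 in 2D and at 816, 1165, 1844 and 1797 in 3D, so the 3D library of mouse 1 lay among the 2D libraries. Its limma adjusted p of 0.0411 rose above 0.05 without the 2D library of mouse 3 (0.0598), 4 (0.0917) or 5 (0.0909) or the 3D library of mouse 4 (0.0632), 5 (0.0991) or 7 (0.0989).

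Scarna2, a U2 RNA guide with no host gene by the rule used here, had the highest level of the Cajal body class and shows what the annotated length does. It was at 13449, 12994, 0 and 0 deposited FPKM in 2D and at 52659, 33336, 43289 and 32762 in 3D. These levels correspond to 1, 1, 0 and 0 fragments in 2D and 4, 3, 4 and 3 in 3D, a depth-corrected ratio of 7.73 with an exact 95% interval of 1.78 to 70.1. In the normalized values the groups overlapped, and it was not called (log2 fold change 7.43 ± 3.82 SE, adjusted p = 0.162 by limma). RefSeq gives this gene 61 nt and GENCODE 414 nt. Scarna17 had 1 fragment, in the 2D library of mouse 5, which read as 9355 FPKM.

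The sequences below show where the RefSeq gene lies within the GENCODE transcript, with the RefSeq part in capitals and the rest in lower case. For Scarna2 only the RefSeq part at chr3:108554342-108554402 and the bases beside it are printed. Snord93 lies at chr5:23852210-23852280 and Snord49a at chr11:62603450-62603521 on the plus strand, Snord83b at chr15:80078498-80078591 and Scarna2 on the minus strand.
Snord93: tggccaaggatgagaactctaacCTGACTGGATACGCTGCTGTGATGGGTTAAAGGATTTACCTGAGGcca
Snord49a: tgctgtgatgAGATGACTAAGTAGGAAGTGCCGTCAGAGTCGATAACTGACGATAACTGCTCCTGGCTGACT
Snord83b: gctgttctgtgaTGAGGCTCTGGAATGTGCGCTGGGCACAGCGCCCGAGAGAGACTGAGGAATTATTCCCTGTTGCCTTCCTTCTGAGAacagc
Scarna2: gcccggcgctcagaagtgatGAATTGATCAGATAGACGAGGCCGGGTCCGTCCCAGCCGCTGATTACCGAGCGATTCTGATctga

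In these genes the RefSeq part leaves out bases at the 5′ end. Snord83b, within Rpl3, was at 5718, 0, 0 and 0 normalized FPKM in 2D and at 4944, 2747, 3905 and 3613 in 3D. It was called with a log2 fold change of 8.74 ± 2.76 (SE, adjusted p = 0.0366 by limma), but 1, 0, 0 and 0 fragments in 2D and 2, 1, 1 and 1 in 3D lay behind it. The depth-corrected ratio of 5.52 had an exact 95% interval of 0.618 to 261, which includes equal levels. The call was kept only without the 2D library of mouse 2, and in the other 7 leave-outs limma's adjusted p lay between 0.0675 and 0.0909. Snord93 was above 0 in the 3D library of mouse 1 alone, at 69107 FPKM, and Snord99 in the 2D library of mouse 5 alone, at 31737 FPKM. Snord104 had in 2D 3921 FPKM in mouse 4 alone, and it was at 5251, 0, 8661 and 13013 in 3D (limma's adjusted p = 0.213, and 0.0456 without the 3D library of mouse 4). Snord49b had 1 fragment in each of 3 libraries.

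Counted as fragments, the genes together were higher in every 3D library than in every 2D library. Summed over the 56 genes for which fragments could be counted or bounded, the 2D libraries held at least 909, 611, 663 and 929 fragments and the 3D libraries 1668, 2270, 1497 and 1739. Divided by the estimated depth in M (mega) fragments, these were 57.2, 36.6, 39.7 and 57.3 in 2D and 117, 152, 103 and 111 in 3D. Snord22, Snora74a and Snord15b together made up between 55.1% and 67.7% of this sum of counts and lower bounds in each library. Their share of all fragments on these genes is not known. Box C/D genes ranged from 17.8 to 24.1 in 2D and from 59.6 to 95.4 in 3D, and box H/ACA genes from 13.6 to 26.5 and from 27.5 to 43.4. Cajal body RNA genes overlapped, with 4.67 to 9.06 in 2D and 8.87 to 13.6 in 3D. The class values also mix counts with lower bounds, so their sizes cannot be compared between classes. The sums share libraries and depth and are given without a test.

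**Figure D3:**
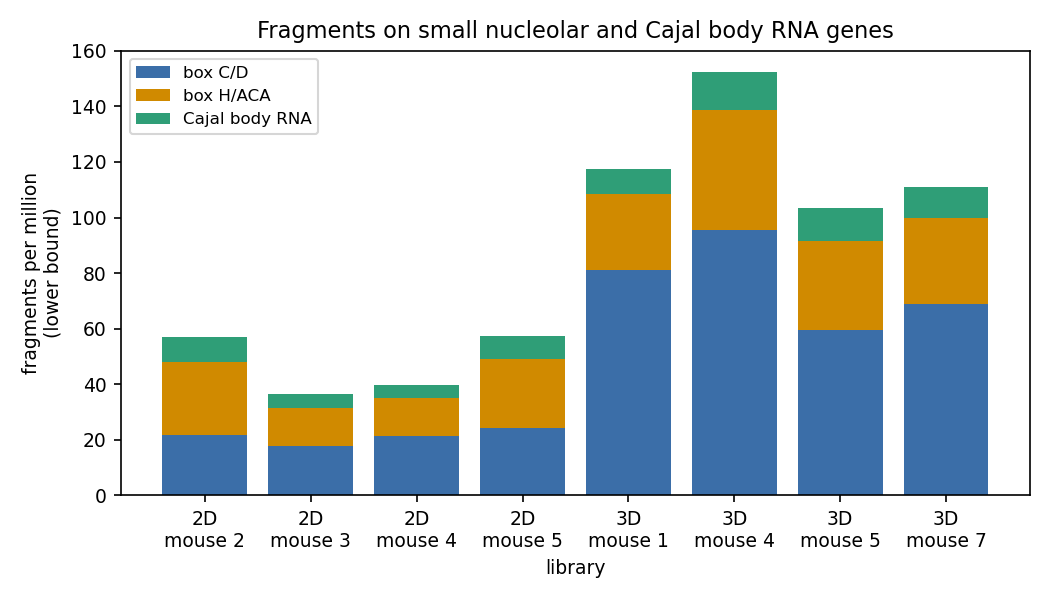
Fragments per M fragments of estimated depth (y axis, a lower bound) on box C/D, box H/ACA and Cajal body RNA genes in each library (x axis), stacked. The bars of the 2D libraries end between 36.6 and 57.3 and those of the 3D libraries between 103 and 152.

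Short genes had far fewer fragments, and 1 of the 16 above 0 was called. The genes of 61 to 94 nt together had 3, 2, 3 and 6 fragments in 2D and 11, 16, 12 and 10 in 3D, and no gene had more than 4 in a library. Single genes went both ways, and Scarna17, Snord33, Snord47 and Snord88c were above 0 in 2D only. MicroRNA genes of that length gave a comparison, since between 4 and 10 of 737 were above 0 in the 2D libraries and between 6 and 7 in the 3D libraries. MicroRNA genes above 0 numbered 71 when taken by a symbol of Mir and a digit, without a limit on length. Among them, 2 were called higher and 4 lower, with a median log2 fold change of -0.01. Of the 73 other genes under 300 nt 3 were called higher and 0 lower, with a median of 0.16. That set was taken by RefSeq length and also holds the microRNA genes under 300 nt, so the sets overlap. The 4 lower calls among the microRNA genes therefore came from no gene with a RefSeq length under 300 nt. The difference between these groups and the small RNA genes was not tested.

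Longer structural RNAs were looked at beside them. Rmrp, the RNA of RNase MRP, was at 158960, 93729, 90072 and 93611 deposited FPKM in 2D and at 138354, 154817, 151652 and 172610 in 3D, and the groups overlapped. Terc, the telomerase RNA, which carries an H/ACA domain and passes through Cajal bodies, was at 55.9, 19.2, 17.1 and 23 normalized FPKM in 2D and at 37.9, 138, 102 and 65 in 3D. It was called higher (log2 fold change 1.55, limma's adjusted p = 0.0358), although the 3D library of mouse 1 lay below the 2D library of mouse 2, and the call was lost on the deposited scale (0.0925). Rpph1 and Vaultrc5 were not called, with log2 fold changes of -0.41 and 0.08.

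Of 30 genes for core proteins, assembly, transport, trimming and decay of these particles, 2 were called higher (6.67%, against 21.2% of all genes) and 8 lower (26.7%, against 20.3%), with a median log2 fold change of -0.22 against 0.00 over all genes. With mice 4 and 5 only, under the mouse block and by the fold rule, 0 were called in either direction. Among the core box C/D proteins, the methyltransferase fibrillarin (Fbl) had a log2 fold change of 0.27 (limma's adjusted p = 0.237), Nop56 of -0.53 (0.096) and Nhp2l1 of -0.13 (0.418). Nop58 fell, from 61.3, 53.8, 41.1 and 62.9 normalized FPKM in 2D to 28.7, 46.5, 37.9 and 34.5 in 3D (log2 fold change -0.56 ± 0.18 SE, adjusted p = 0.0399 by limma). The core box H/ACA proteins, the pseudouridine synthase Dkc1 and its partners Nop10, Nhp2 and Gar1, were called in 0 of 4, with log2 fold changes between -0.43 and 0.07 and with 0 of 4 at an unadjusted p below 0.05.

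The call of Nop58 was lost without any of 6 libraries, the 2D libraries of mice 2, 3 and 5 and the 3D libraries of mice 1, 5 and 7, with limma's adjusted p between 0.074 and 0.0978. On the deposited scale Fbl and Nop10 turned to -0.19 and -0.41, and Nop56, Nhp2l1 and Nhp2 passed the threshold as lower. The direction of Fbl and Nop10 thus depends on the scaling.

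Assembly and turnover factors moved in both directions. Naf1, an assembly factor of box H/ACA particles, rose from 10.9, 8.14, 7.52 and 10.3 to 17.7, 11.4, 13.8 and 15.6 normalized FPKM (log2 fold change 0.61, limma's adjusted p = 0.021). Exosc10, the nuclear exonuclease of the RNA exosome, rose by 0.61 on the log2 scale (0.00228), and Dis3, another exosome nuclease, fell by 0.90 (0.0157). Nolc1, a nucleolar and Cajal body protein that binds both particle classes, fell by 0.78 (0.00712), Smn1, the survival of motor neuron protein, by 0.42 (0.00265), and Phax, an export adaptor, by 0.38 (0.0362). The box C/D assembly factors Nufip1 and Znhit6 fell by 0.47 (0.0253) and 0.73 (0.049), and Taf9 by 0.42 (0.0154), all by limma's adjusted p. On the deposited scale Nufip1 (-0.23, 0.174) and Znhit6 (-0.52, 0.157) were no longer called. Coil, the marker protein of Cajal bodies, had a log2 fold change of -0.18 (0.484), and 0.09 on the deposited scale.

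Of 77 listed host genes, 11 were called higher (14.3%, against 21.2% of all genes) and 9 lower (11.7%, against 20.3%), and their median log2 fold change was 0.00. Of the 13 small RNA genes called higher, 2 had a host that was called higher, Eif4a2 with Snora81 and Eif5 with Snora28, 1 had a host called lower, Cct6a with Snora15, and 10 had a host that was not called. The log2 fold change of the small RNA exceeded that of its host in 13 of 13. Since the small RNAs were chosen for their rise, this order is a description and was not tested.

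Rps3, which carries Snord15a and Snord15b, was at 535, 382, 417 and 399 normalized FPKM in 2D and at 561, 643, 524 and 485 in 3D. Its log2 fold change of 0.36 (limma's adjusted p = 0.0873) stands beside 2.22 and 2.15 for the snoRNAs. Snx5, the host of Snord17, had 0.24 (0.106), and on the deposited scale both hosts turned to -0.16. Snhg1, a noncoding gene known mainly as the carrier of Snord22 and its neighbours, had -0.19 (0.495), and on the deposited scale it was called lower (-0.61, limma's adjusted p = 0.0464). Eif4a2, a translation initiation factor, had the largest change of these hosts, 1.15 (0.0101), but 0.59 (0.0906) on the deposited scale.

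**Figure D4:**
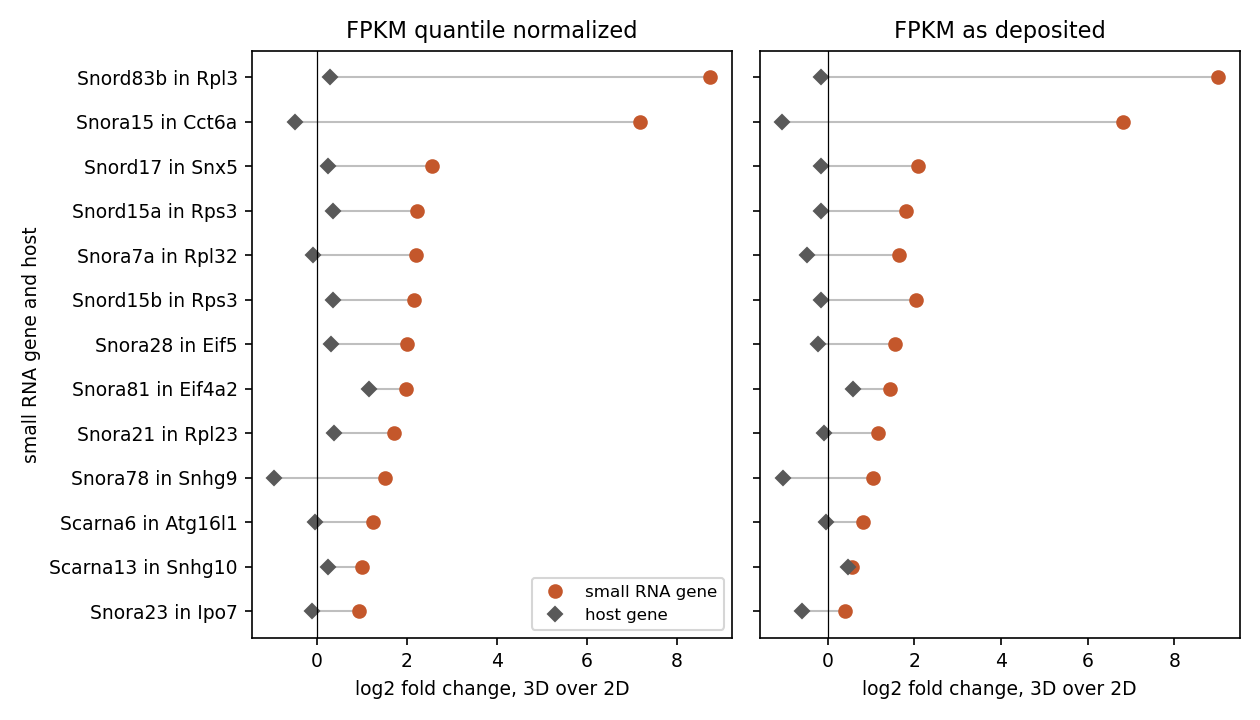
Log2 fold change between 3D and 2D of the 13 called small RNA genes (orange circles) and of their host genes (grey diamonds), from quantile normalized FPKM on the left and deposited FPKM on the right. The small RNA lies to the right of its host in 13 of 13 pairs on the left, where hosts range from -0.95 to 1.15.

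The scale on which values are compared shifts hosts and small RNAs, but not by the same amount. Relative to the deposited values, quantile normalization moved genes of 100 to 1000 FPKM by a median of 0.55 towards 3D and the hosts by 0.35. It moved the 58 small RNA genes tested by a median of 0.15, and the 13 called genes, which were chosen on the normalized scale, by 0.45. On the deposited scale the median log2 fold change of the 13 was 1.56 and that of the hosts was -0.31. Of the hosts, 7 were called higher and 18 lower, against 4279 and 4069 of the 18862 genes tested. Of the 58 small RNA genes, 9 were called higher, all among the 13, a smaller share than over all genes. Snora23, Snora28, Snora78 and Scarna13 were not called there. Eif5 turned from 0.31 to -0.22. A scale with 1 value per fragment in every library, chosen after seeing the data, kept 8 of the 13 calls and gained no other. Over all 18862 genes tested, 4278 were called higher on that scale, again a larger share. Scarna6 (limma's adjusted p = 0.0622) was then also lost. Snord15a, Snord15b, Snord17, Snora7a, Snora15, Snora21 and Snora81 were called on each of these scales and without any 1 library.

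Mice 4 and 5 gave both kinds of culture, and with the mouse as a block only 1 residual degree of freedom remains. Under this block 0 of the 58 genes, and 0 of all genes, passed limma's adjusted p of 0.05, and 15 of the 58 were higher at an unadjusted p below 0.05. The lowest adjusted p of any of the 13 called genes was 0.111 there. With only the libraries of mice 4 and 5, 13 were called higher, 9 of them among the 13 above, against 1788 over all genes tested there.

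Beside all these values, the cultures differed in their cell type markers. Of 8 epithelial markers, 7 were called higher in 3D and their summed normalized FPKM was between 0.0876 and 517 in 2D and between 2186 and 2653 in 3D, with Esrp1 at 0 in all 2D libraries. Of 11 stromal markers, 8 were called lower and 1, Ly6a, higher, with Pdgfrb and Dcn at 0 in all 3D libraries. Their sum was between 1859 and 3616 in 2D and between 152 and 3180 in 3D. Nearly all of the 3D sum came from Ly6a, at 58.6, 1429, 2473 and 3117, and Cd44, at 93.6, 90.3, 115 and 62.9. Among the surface markers commonly used for such cells, Thy1 and Eng were also lower, with means of 161 and 22.5 in 2D and 0.0245 and 0.121 in 3D, whereas Cd44, with means of 111 and 90.4, was not called. The call of Ly6a was lost on the deposited scale (limma's adjusted p = 0.057), where Cd44 was called lower (0.0314). Of 5 leukocyte markers, 1 was called higher, with Adgre1 and Lyz2 at 0 in 3D, of 5 endothelial markers 0 were called and 1 passed an unadjusted p of 0.05, and the 2 proliferation markers Mki67 and Top2a were not called, with log2 fold changes of -1.28 and -1.45. The part of cell type in the small RNA levels was not tested, and in bulk RNA fewer cells of a type and less RNA per cell cannot be told apart. Depth was estimated at 15.9 M to 16.7 M fragments in the 2D libraries and 14.2 M to 15.7 M in the 3D libraries, and nothing in the labels gives a batch.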

How the data were processed

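Ribosomal RNA was depleted from total RNA with Lexogen RiboCop and directional libraries were made with NEBNext Ultra II. Per the labels and the study's methods, the authors trimmed reads with FASTX_Trimmer, aligned them to mm10 with TopHat and deposited Cufflinks FPKM for each library. The annotation version is not given in the sources used here. The 8 libraries came from separate mice within each culture type, with mice 4 and 5 in both. FPKM were quantile normalized and log2(FPKM + 1) was tested with limma 3.58.1 (R 4.3.3, trend) in 18862 genes above 0 in any library, with Benjamini-Hochberg adjustment at 0.05. The scripts were tested on simulated data. Depth was estimated from the FPKM steps and 5883 long genes. Fragments were counted from these steps for genes of 61 to 140 nt, given as lower bounds above that length and not given below it. Intervals are exact at 95% and cover counting error only.

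Members and lists were chosen with earlier results of these data known. Genes were named as the 5 box C/D, 5 box H/ACA and 3 Cajal body genes of highest mean level, as the called genes with the 5 largest changes each way and no overlap, and as processing RNAs, Rpl13a and imprinted snoRNAs, core proteins and hosts. The other called genes, Snord47, Snord49a, Snord88c and the other protein genes were named after their values were seen. Snord3, Snord13, Snora73, Rn7sk, Rny1 and Rny3 were looked for, but no listed gene bears these symbols, so they were not analysed here. Of the hosts the rule names, 1 is not reported here. Sequences and positions are from GENCODE M21 and RefSeq on GRCm38. Same-mouse libraries share an animal, and their deviations from the group means had correlations of -0.053 (mouse 4) and -0.113 (mouse 5) over 12577 genes. Alternatives were deposited and median-ratio scales, a pseudocount of 0.1, no trend, genes with a mean of 1 FPKM or more, a mouse block, mice 4 and 5 only, each library left out, a fold rule, and, chosen after seeing the data, 1 value per fragment.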

Additional observations from a re-analysis of the deposited data

Results flagged for a closer look

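In 15 of 106 groups of 4 libraries, 1 library lay far from the other 3 by Dixon's criterion. Chance meets it in about 1 of 20 groups, but this rate does not apply where the other 3 libraries are at 0, since 1 fragment then meets it in any gene. Values are normalized FPKM. In 9 of the 15, 1 library was above 0 and the other 3 of its group were at 0. These were Scarna17 in the 2D library of mouse 5 (9016), Snora15 in the 2D library of mouse 5 (38.8), Snord104 (4980), Snord33 (2148) and Snord49b (48676) in the 2D library of mouse 4, Snord83b in the 2D library of mouse 2 (5718), Snord99 in the 2D library of mouse 5 (48676), Snord35a in the 3D library of mouse 4 (2317) and Snord93 in the 3D library of mouse 1 (29619).

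In 3D, Snora15 was at 166 in mouse 1, below its range of 450 to 498 in mice 4, 5 and 7. In the 2D library of mouse 2, Snora74a was at 4717 against 1935 to 2203 in the other 2D libraries, Snord15a at 609 against 363 to 401, and the host Rpl3 at 719 against 623 to 635. In the 2D library of mouse 5, the host Rpl23 was at 501 against 687 to 706 and the host Snx5 at 42.9 against 50.7 to 51.5.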

How the results depend on the processing

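The precision of short genes is limited by fragments, since 28 of the 47 genes with counted fragments had at most 10 over all 8 libraries. Among single genes, 737 values kept direction and side of the threshold under the alternatives, 29 passed it, 70 no longer did and 54 changed sign. The cause was not tested. Over all 18862 genes tested, 4278 were higher and 4069 lower with 1 value per fragment, and 4279 and 4069 on the deposited scale. With median-ratio scaling they were 4544 and 3853. With 1 value per fragment, 8 small RNA genes were higher, with 4 box H/ACA and 0 Cajal body genes, and 7 hosts were higher and 18 lower. On the deposited scale 4 box H/ACA and 1 Cajal body gene were higher, and 7 hosts were higher and 18 lower. With median-ratio scaling 1 Cajal body gene was higher, and 7 hosts were higher and 16 lower. With mice 4 and 5 alone, 1 Cajal body gene, 0 protein genes and 3 hosts were higher, and 0 protein genes and 1 host lower. By the fold rule 0 protein genes were higher and 0 lower, and 1 host was higher and 2 lower.

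Under a replicate block for the mouse number, which leaves 1 residual degree of freedom, limma called 0 small RNA genes, 0 box C/D, 0 box H/ACA and 0 Cajal body genes higher, 0 protein genes and 0 hosts in either direction, and 0 of all genes. At an unadjusted p below 0.05, 15 small RNA genes were higher. Log2 fold changes that changed sign under the block were Atg16l1 (0.09), Ipo7 (0.02), Rpl32 (0.07), Snhg10 (-0.16), Snhg1 (0.20), Snhg9 (0.48) and Snord49b (-1.40), and with mice 4 and 5 alone Atg16l1 (0.09), Ipo7 (0.03), Rpl32 (0.07), Snhg10 (-0.16), Snhg1 (0.20), Snhg9 (0.48) and Snord49b (-1.27).

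Without 1 library at a time, between 10 and 14 small RNA genes were higher, with 3 to 4 box C/D, 6 to 8 box H/ACA and 1 to 2 Cajal body genes. Over all genes tested, between 3393 and 4051 were then higher. Protein genes were higher in 1 to 4 cases and lower in 4 to 10, and hosts in 6 to 11 and 6 to 13. Log2 fold changes that changed sign then ranged from -0.12 to 0.01 for Atg16l1, -0.17 to 0.27 for Dancr, -0.21 to 0.05 for Ipo7, -0.03 to 0.17 for Nop10, -1.42 to 0.15 for Snhg9 and -1.97 to 2.81 for Snora68.

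On the deposited scale and with 1 value per fragment, log2 fold changes turned negative for Eif5 (-0.22), Fbl (-0.19), Nop10 (-0.41), Rpl13a (-0.31), Rpl23 (-0.08), Rpl3 (-0.15), Rps13 (-0.34), Rps3 (-0.16) and Snx5 (-0.16), and on the deposited scale for Snora68 (-0.04). With median-ratio scaling they were -0.15 for Eif5, -0.13 for Fbl, -0.35 for Nop10, -0.24 for Rpl13a, -0.02 for Rpl23, -0.08 for Rpl3, -0.27 for Rps13, -0.10 for Rps3, -0.09 for Snx5 and 0.01 for Atg16l1.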
